A study of Mus musculus with 18 samples.

Results

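The 3 D-type cyclin genes (Ccnd1, Ccnd2 and Ccnd3) and 6 genes for inhibitors of cyclin-dependent kinases (Cdkn1a, Cdkn1b, Cdkn2a, Cdkn2b, Cdkn2c and Cdkn2d) were followed through the uterus of wild-type (WT) and Tsc2-null (KO) mice. They were chosen by gene symbol, and all 9 were found among the 25791 genes of the deposited expression table. Transcript levels are given as FPKM, a fragment count scaled to transcript length and library size, so that levels can be compared between genes of different length. The study asked which uterine genes depend on estrogen and on mTORC1, the growth-promoting kinase complex that the Tsc2 product holds back. Uterine cross sections were profiled in 6 groups of 3 libraries, 18 in all. All mice were 12 weeks old, of the mixed 129Sv X C57BL/6 strain, and either wild type or null for Tsc2 in the uterus only. Mice of each genotype were left with their ovaries (intact), had them removed at 4 weeks of age (ovx), or had them removed and then carried a 0.5 mg pellet of 17β-estradiol with a 90 day release for 8 weeks (E2). Estrous cycle stage of the intact mice did not enter any comparison. The labels name neither the Cre driver nor the cells that lost Tsc2. They also do not say whether the 3 libraries of a group came from separate animals, so the p-values speak to the spread among these libraries and no further.

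D-type cyclins bind and activate CDK4 and CDK6, which phosphorylate the retinoblastoma protein and so release E2F factors that drive entry into S phase. INK4 inhibitors (the Cdkn2 genes) bind CDK4 and CDK6 and block that partnership, and CIP/KIP inhibitors (Cdkn1a, which makes p21, and Cdkn1b, which makes p27) act on CDK2 complexes as well. In the uterus, estrogen drives epithelial cells into the cycle, and D cyclins and p27 are well-known points of that control.

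The start regions of 3 inhibitor genes are shown first because Cdkn1a and Cdkn1b moved in opposite directions under E2 and Cdkn2b was the INK4 gene that differed most often between hormone states. RefSeq promoter windows (build GRCm38.p6) were matched for 7 of the 9 members, with 11 windows in all, each cut to the 250 bases before the start of transcription. Ccnd1 and Ccnd2 had no entry. Windows run 5′ to 3′ on the strand of the gene, with the matched motifs in capitals.
Cdkn1a, upstream start (chr17:29090729-29090978, plus strand): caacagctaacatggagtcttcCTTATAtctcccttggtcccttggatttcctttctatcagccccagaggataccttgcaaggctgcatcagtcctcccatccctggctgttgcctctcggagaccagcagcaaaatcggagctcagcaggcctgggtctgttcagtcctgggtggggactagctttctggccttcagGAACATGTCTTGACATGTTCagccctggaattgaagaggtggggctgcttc
Cdkn1a, downstream start (chr17:29093519-29093768, plus strand): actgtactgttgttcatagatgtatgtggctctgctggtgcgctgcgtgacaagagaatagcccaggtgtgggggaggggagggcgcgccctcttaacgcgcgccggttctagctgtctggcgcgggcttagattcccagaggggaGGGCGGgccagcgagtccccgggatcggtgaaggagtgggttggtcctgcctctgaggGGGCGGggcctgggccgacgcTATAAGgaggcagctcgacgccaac
Cdkn1b (chr6:134920151-134920400, plus strand): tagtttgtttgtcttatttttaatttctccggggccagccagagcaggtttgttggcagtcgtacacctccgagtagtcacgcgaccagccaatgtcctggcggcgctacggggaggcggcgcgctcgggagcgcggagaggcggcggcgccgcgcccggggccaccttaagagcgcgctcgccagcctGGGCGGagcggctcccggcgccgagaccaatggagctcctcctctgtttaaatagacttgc
Cdkn2b (chr4:89311033-89311282, minus strand): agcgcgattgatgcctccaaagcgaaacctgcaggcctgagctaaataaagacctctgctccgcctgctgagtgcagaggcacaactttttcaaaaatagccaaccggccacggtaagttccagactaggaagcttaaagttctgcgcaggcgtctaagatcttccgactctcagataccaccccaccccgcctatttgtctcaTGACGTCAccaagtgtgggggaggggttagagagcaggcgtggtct

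Both strands were searched for the GC box GGGCGG, the TATA box TATAAN, the E-box CACGTG, the cyclic AMP response element TGACGTCA, the AP-1 site TGANTCA, the E2F sites TTTGGCGC and TTTCGCGC, the palindromic estrogen response element, and a p53 element of 20 letters with at most 1 mismatch. The upstream Cdkn1a window held a p53 element from 51 to 32 bases before the start, a motif found in 0.0578% of 32851 windows of the same length, and a TATA box on the other strand 228 bases before the start. The downstream Cdkn1a window held 2 GC boxes (a motif in 32.7% of windows) and a TATA box 25 bases before the start (22.7% of windows). Cdkn1b held 1 GC box, and Cdkn2b held the cyclic AMP response element 46 bases before the start (1.55% of windows). The E-box (6.02% of windows), AP-1 site (6.75%), both E2F sites (0.417% and 0.256%) and the estrogen response element (0.0639%) were not matched in any of the 11 windows. A match describes letters only, and no match says only that those letters are not in the window. Cdkn2a has 2 starts, an upstream one for Arf and a downstream one for p16, and its single FPKM value sums both products.

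Depth could not be read from the deposited FPKM values, which carry no read totals. Libraries did differ in their values: genes at 0 numbered 4228 to 7395 per library, and summed FPKM ran from 216032 to 591668. Tsc2 itself was at 2.27 ± 0.236 FPKM in WT intact, 1.83 ± 0.186 FPKM in KO intact, 3.298 ± 0.169 FPKM in WT ovx, 2.898 ± 0.474 FPKM in KO ovx, 2.59 ± 0.182 FPKM in WT E2 and 2.15 ± 0.351 FPKM in KO E2 (SD, n = 3). Its KO to WT difference over the states was -0.18 ± 0.07 (SE; adjusted p = 0.158) on the log2(FPKM + 1) scale and did not pass the test, so the gene's level gives little check of the genotype labels in this whole-tissue RNA. Markers of uterine cell types were present in every group, and those of other tissues set a few libraries apart. Summed FPKM of 6 neutrophil markers was 1292 to 14350 in KO E2 against 69.6 to 559 in WT E2, and 216.2 in KO ovx replicate 4 against 1.96 and 2.21 in the other KO ovx libraries. Summed FPKM of 5 adipocyte markers reached 1426 in KO E2 replicate 3. That library also had the highest sum of 4 macrophage markers, 2598 against 476 and 395 in the other KO E2 libraries. Its sum of 5 lymphocyte markers, 44.7 against 9.99 and 11, was the highest as well. WT intact replicate 4 had the lowest sum of 6 stromal markers, 38.1 against 234 and 418 in the other WT intact libraries. The lowest values were also used to sort the libraries into 4 sets with shared value steps, a number that was set rather than found. These sets are called batches here, and the labels name none. Intact libraries fall in batches 1 and 2 and all others in batches 3 and 4, so batch and the presence of ovaries cannot be told apart.

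Of the comparisons run, E2 against ovx called the most members, while by libraries without overlap intact against ovx had more in KO. Differences were tested with limma on log2(FPKM + 1) over the 13898 genes with at least 1 FPKM in at least 3 libraries, and a gene was called at an adjusted p under 0.05 over all of them. Of the 9 members, 8 passed that filter and Cdkn2a did not. In WT, E2 against ovx called 5 of 8 members, with Ccnd3 (which turned under quantile normalization), Cdkn1a and Cdkn2b higher and Ccnd2 and Cdkn1b lower, where 47.5% of all tested genes were called (32.3% higher, 15.2% lower). The same 5 had libraries that did not overlap between the groups, where 66.7% of all tested genes had none that overlapped. In KO, E2 against ovx called 4 of 8, with Ccnd3 and Cdkn1a higher and Ccnd2 and Cdkn1b lower, against 27.1% of tested genes (15.9% higher, 11.2% lower). Libraries did not overlap for 3 of 8 members in KO, against 36.3% of tested genes. The split of the background depends on scaling: of the genes called for E2 against ovx in WT, 67.9% were higher as reported, 50.9% with median-ratio scaling and 43.6% with quantile normalization, and in KO 58.7% as reported and 39.5% with quantile normalization.

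Intact against ovx called Ccnd2 lower and Cdkn2b higher in each genotype, 2 of 8 members both times, where 45.3% of tested genes were called in WT (29.9% higher, 15.4% lower) and 15.9% in KO (7.14% higher, 8.74% lower). Of the genes called in WT there, 65.9% were higher as reported, 48.4% with median-ratio scaling and 52.6% with quantile normalization. Members without overlap in that comparison were 3 of 8 in WT (61% of tested genes) and 5 of 8 in KO (41.1%). KO against WT called 0 of 8 members with limma in intact (2.18% of tested genes), ovx (5.42%) or E2 (8.49%) uterus. At an unadjusted p under 0.05 there were 2 of 8 members in intact (Ccnd3 and Cdkn2b; 18.4% of tested genes), 1 in ovx (Ccnd2; 21.1%) and 2 in E2 (Cdkn2c and Cdkn2d; 22.3%), which is near the background each time. KO and WT libraries did not overlap for 2 of 8 members in intact (22.8% of tested genes), 3 of 8 in ovx (40.2%) and 1 of 8 in E2 (22.5%), with KO higher each time. The mean over the 3 states called 1 of 8, Ccnd2, against 5.9% of tested genes (4.17% higher); of the genes called, 70.6% were higher as reported and 52.9% with quantile normalization. The tests of whether genotype altered the E2 response (11% of tested genes called) or the effect of the ovaries (4.63%) called 0 of 8 members with limma, and 0 had an unadjusted p under 0.05 in either, where 28% and 24.7% of tested genes did. The shares of members called in E2 against ovx lie above those of all genes in both genotypes, the shares without overlap do not in WT, and 8 genes are too few to read more from this. The 2 hormone comparisons within a genotype share their ovx libraries.

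**Figure D1:**
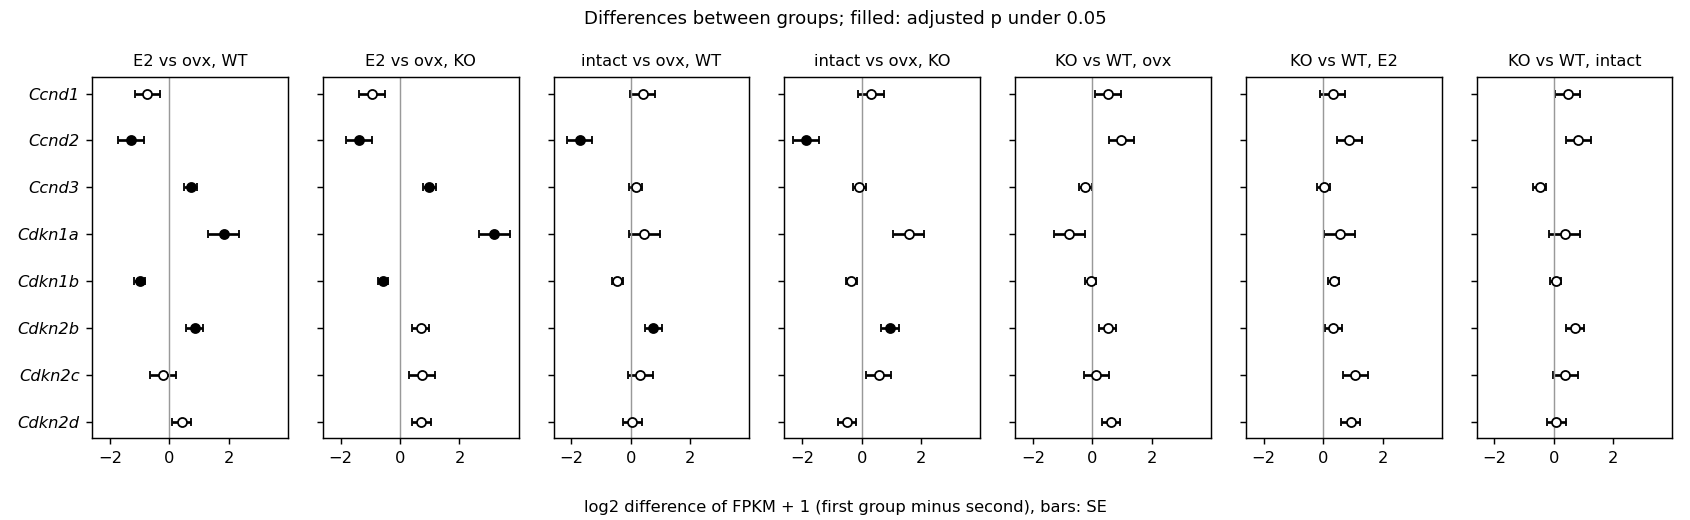
Each panel is 1 comparison, the x axis is the log2(FPKM + 1) difference (first group minus second) and bars are standard errors; filled points passed an adjusted p under 0.05. In WT, E2 against ovx has 5 filled points, and the KO against WT panels for single states have none.

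The differences plot sets the members side by side and shows Cdkn1a with the largest E2 difference of the 8 tested in both genotypes on the log2(FPKM + 1) scale. That scale understates the changes of low genes such as Cdkn2b, whose ratio of E2 to ovx means in WT was the larger.

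Ccnd3, cyclin D3, was the most abundant D cyclin in 14 of 18 libraries and the D cyclin called higher under E2, although its WT direction turned under quantile normalization. It was at 9.67, 12.3 and 11.03 FPKM in the WT ovx libraries and 21.3, 16.2 and 19.2 FPKM in WT E2. KO ovx libraries had 10.8, 10.3 and 6.85 FPKM and KO E2 libraries 19.1, 15.3 and 23.8 FPKM. Every E2 library lay above every ovx library of its genotype. The difference was 0.73 ± 0.22 (SE; adjusted p = 0.0142) in WT and 0.99 ± 0.22 (SE; adjusted p = 0.00438) in KO, and the means differed 1.72-fold and 2.09-fold. The WT direction depended on scaling. Median-ratio scaling, which moves the median gene of that comparison from 0.24 to 0.01, gave 0.42 (adjusted p = 0.113), and quantile normalization turned it to -0.16 (adjusted p = 0.559). Relative to the median gene, then, the WT rise of Ccnd3 was not established. In KO the direction held under both, at 0.91 (adjusted p = 0.00542) and 0.51 (adjusted p = 0.0836). The WT call was lost without WT ovx replicate 1 (0.64, adjusted p = 0.05904) and without WT E2 replicate 1 (0.64, adjusted p = 0.0534); the KO call was lost when only the 2 compared groups entered the fit, 0.99 (adjusted p = 0.0644). Within batches the WT difference was 0.83 (adjusted p = 0.0797) in batch 3 and 0.55 (adjusted p = 0.276) in batch 4, and the KO difference was 1.29 (adjusted p = 0.0283) in batch 3, where the KO E2 group has 1 library.

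With ovaries, Ccnd3 was at 10.7, 11.5 and 15.6 FPKM in WT and 7.604, 10.8 and 7.81 FPKM in KO, close to the ovx levels. Neither intact against ovx difference passed, 0.17 ± 0.22 (SE; adjusted p = 0.558) in WT and -0.07 ± 0.22 (SE; adjusted p = 0.858) in KO. Ccnd3 overlaps Bysl on the other strand, and although the library kit marks strand, the sources do not state if reads were assigned by strand.

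Ccnd2, cyclin D2, was highest without hormone. It was at 3.695, 4.74 and 5.49 FPKM in WT ovx against 1.45, 1.28 and 1.13 FPKM in WT E2 and 0.9798, 1.302 and 0.0687 FPKM in WT intact. KO ovx libraries had 11.3, 6.63 and 13.2 FPKM, KO E2 2.04, 1.42 and 9.24 FPKM and KO intact 1.6, 2.74 and 1.798 FPKM. All ovx libraries lay above all intact and E2 libraries of their genotype except KO E2 replicate 3, which overlapped the KO ovx range. That library had the highest adipocyte, macrophage and lymphocyte sums. The E2 to ovx difference was -1.29 ± 0.43 (SE; adjusted p = 0.0222) in WT, where the ovx mean was 3.599 times the E2 mean, and -1.38 ± 0.43 (SE; adjusted p = 0.0264) in KO. The intact to ovx difference was -1.72 ± 0.43 (SE; adjusted p = 0.00517) in WT and -1.87 ± 0.43 (SE; adjusted p = 0.00852) in KO, with ovx means 5.92 and 5.07 times the intact means. Both intact to ovx calls held in all 14 other settings and left-out libraries, while batch could not be separated from the ovaries there. Cell type markers moved in the same WT comparison: 6 of 6 smooth muscle, 5 of 5 blood endothelium and 2 of 6 stromal markers were called lower and 6 of 7 epithelial markers higher in intact than in ovx. Smooth muscle sums were 72.4 to 445 FPKM in WT intact and 669 to 825 FPKM in WT ovx, endothelial sums 1.35 to 9.396 and 21 to 24.2 FPKM, stromal sums 38.1 to 418 and 394 to 458 FPKM, and epithelial sums 320 to 993 and 40.2 to 90.8 FPKM. In KO, where Ccnd2 was also called lower, intact against ovx called 0 smooth muscle, stromal or epithelial markers and 1 of 5 endothelial markers, higher. The part of these markers in the Ccnd2 and Cdkn2b calls was not tested.

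The E2 calls for Ccnd2 were less stable. In WT the call was lost without WT ovx replicate 2 (-1.27, adjusted p = 0.0547), without WT ovx replicate 3 (-1.18, adjusted p = 0.0675) and without WT E2 replicate 5 (-1.24, adjusted p = 0.0619). In KO it was lost without KO ovx replicate 1 (-1.30, adjusted p = 0.0851), without KO ovx replicate 4 (-1.20, adjusted p = 0.0727), without KO E2 replicate 1 (-1.15, adjusted p = 0.106) and without KO E2 replicate 2 (-0.98, adjusted p = 0.108), and without KO E2 replicate 3 the difference was -2.02 (adjusted p = 0.00049). With a batch term it was -1.003 (adjusted p = 0.137), and within batch 3, which holds KO E2 replicate 3 alone of its group, it was -0.10 (adjusted p = 0.8795). The WT difference was -1.37 (adjusted p = 0.0366) within batch 3 and -1.28 (adjusted p = 0.0858) within batch 4. Stromal marker sums moved with Ccnd2 in WT, at 394 to 458 in ovx and 92.8 to 137 in E2, with 4 of 6 stromal markers called lower. In KO, where Ccnd2 also fell, they did not: the sums were 102 to 272 in ovx and 120 to 627 in E2. There 1 of 6 stromal markers was called higher and 0 lower. The part of these markers in the Ccnd2 result was not tested. In whole-tissue RNA, fewer cells of a type and less RNA per cell cannot be told apart.

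Ccnd2 was also the member called higher in KO over the 3 states, by 0.90 ± 0.25 (SE; adjusted p = 0.0458). KO means were 2.61, 2.24 and 3.28 times the WT means in intact, ovx and E2 uterus. Libraries did not overlap between genotypes in the intact and ovx states, and in E2 the lowest KO library lay inside the WT range. The call lay close to the threshold. It was lost in 12 of 18 fits that left out 1 library, with adjusted p from 0.0631 to 0.0951: without WT intact replicate 4, each KO intact library, each WT ovx library, KO ovx replicates 1 or 4, or each WT E2 library. The difference stayed positive in all 18, and was 0.83 (adjusted p = 0.059) with a batch term. Within batches, KO minus WT was 0.89 (adjusted p = 0.327) and 0.70 (adjusted p = 0.993) in the 2 intact batches, 0.997 (adjusted p = 0.162) in ovx batch 3, and 2.26 (adjusted p = 0.0529) and 0.20 (adjusted p = 0.881) in E2 batches 3 and 4. The large E2 value of batch 3 rests on 1 library of each genotype. Ccnd2 overlaps 2 antisense genes, Gm43126 and 9330179D12Rik.

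Ccnd1, cyclin D1, the D cyclin most often linked to mitogen signals, did not pass in any comparison. It was at 4.14, 5.82 and 8.72 FPKM in WT ovx, 4.21, 2.29 and 3.305 FPKM in WT E2 and 8.71, 8.298 and 7.596 FPKM in WT intact. KO libraries had 7.28, 5.19 and 19.1 FPKM in ovx, 1.59, 6.404 and 6.43 FPKM in E2 and 10.6, 9.8 and 15.2 FPKM in intact. The highest value, 19.1, was in KO ovx replicate 4, and the lowest, 1.59, was in KO E2 replicate 1. Many marker sums set KO ovx replicate 4 apart from the other KO ovx libraries, not the neutrophil sum alone. Its macrophage sum was 543 against 17.5 and 33, and its epithelial sum 399 against 149 and 110. Its adipocyte sum was raised too, at 76.2, while its stromal sum was 102 against 241 and 272 and its smooth muscle sum 248 against 840 and 1005. E2 minus ovx was -0.74 ± 0.43 (SE; adjusted p = 0.172) in WT and -0.95 ± 0.43 (SE; adjusted p = 0.116) in KO, negative in every other setting run. Scaling moved these over the threshold, to -1.005 (adjusted p = 0.0445) in WT by median ratio, and to -1.17 (adjusted p = 0.0194) in WT and -1.15 (adjusted p = 0.0317) in KO by quantiles. The WT difference also passed with only the 2 compared groups in the fit, -0.74 (adjusted p = 0.0481). KO intact libraries all lay above the WT intact ones, by 0.46 ± 0.43 (SE; adjusted p = 0.613).

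**Figure D2:**
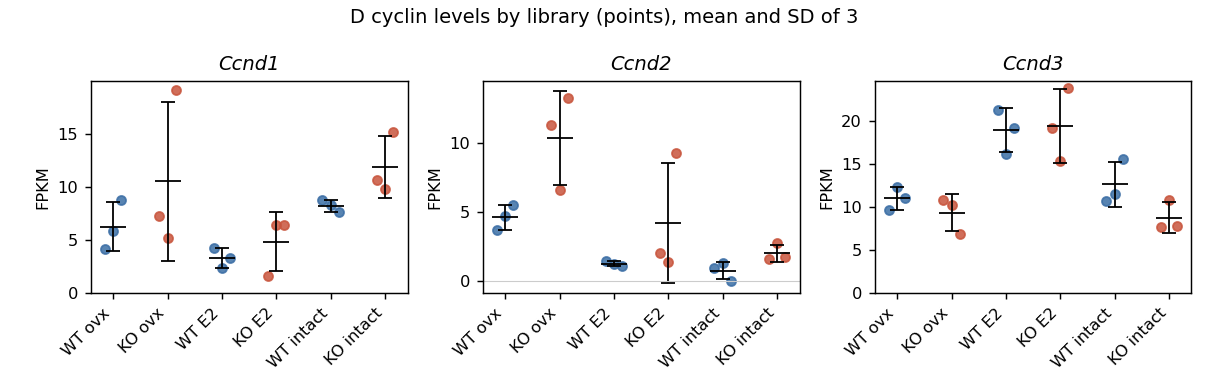
FPKM of Ccnd1, Ccnd2 and Ccnd3 (y axes) in each library (points, WT blue and KO red) of the 6 groups, with the mean and SD of 3 as bars. In FPKM as deposited, which quantile normalization turns for WT, Ccnd3 is high in E2; Ccnd2 is high in ovx, and single libraries such as KO ovx replicate 4 at 19.1 FPKM for Ccnd1 widen the KO spread.

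Together the 3 D cyclins summed to 21.9 ± 3.96 FPKM in WT ovx and 23.4 ± 3.599 FPKM in WT E2 (SD, n = 3), while their shares shifted. The plot of D cyclins by library shows the exchange: Ccnd3 made up 50.9 ± 6.296% of the sum in WT ovx and 80.7 ± 1.53% in WT E2. In KO the sum was 30.2 ± 8.58 FPKM in ovx and 28.4 ± 9.54 FPKM in E2, and the Ccnd3 share was 33.6 ± 14.7% and 70.2 ± 12.4%. Ccnd2 took 34.1 ± 4.25% in KO ovx against 21.2 ± 0.507% in WT ovx. A share cancels a single scaling factor per library, so the shift toward Ccnd3 in WT E2 does not depend on such a factor. Quantile normalization is not cancelled in this way, and shares were not computed under it. A share also shows unequal change only. Shares were not tested.

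**Figure D3:**
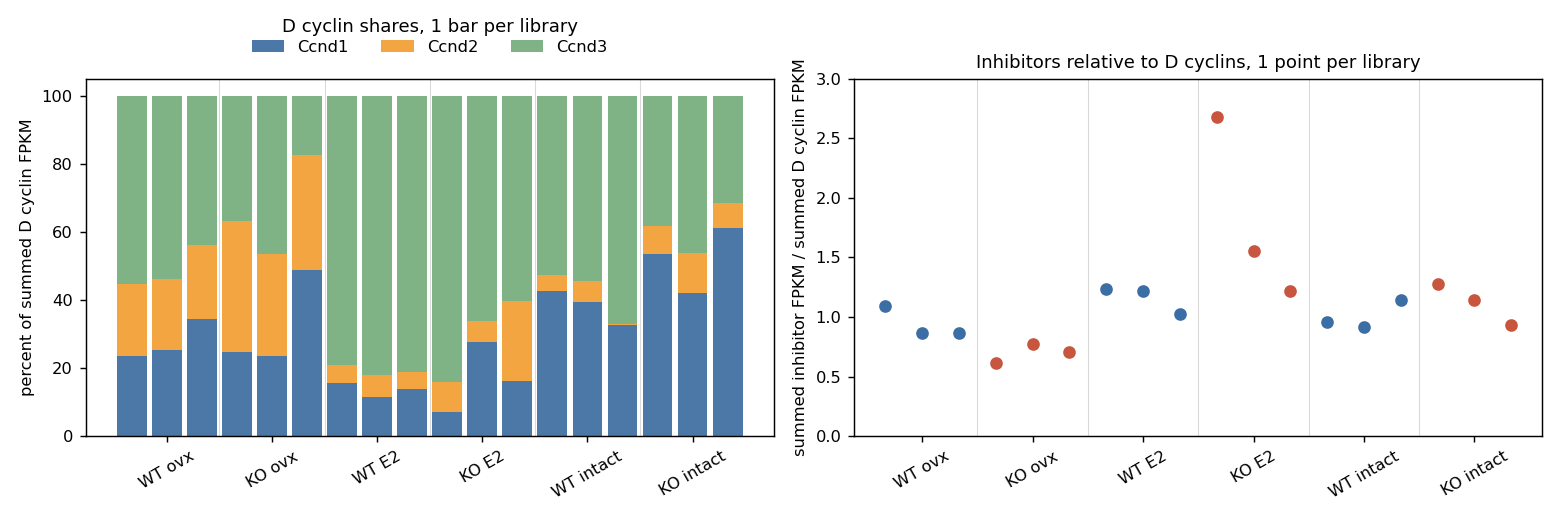
Left, percent of summed D cyclin FPKM taken by each gene, 1 bar per library; right, summed FPKM of the 6 inhibitors divided by that of the 3 D cyclins, 1 point per library (WT blue, KO red). Ccnd3 takes 60.3% or more in each E2 library, and KO ovx libraries have the lowest inhibitor ratios, 0.615 to 0.771.

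Cdkn1a, which makes p21, had the largest E2 difference of the tested members on the log2(FPKM + 1) scale; in WT Cdkn2b was ahead of it as a ratio of means (7.57 against 3.85) and with a pseudocount of 0.1 (2.25 against 2.10). It was at 2.32, 2.403 and 7.25 FPKM in WT ovx and 19.7, 12.9 and 13.6 FPKM in WT E2. KO ovx libraries had 0.887, 1.36 and 3.16 FPKM and KO E2 libraries 37.6, 21.8 and 14.3 FPKM. No ovx library reached the lowest E2 library. E2 minus ovx was 1.83 ± 0.52 (SE; adjusted p = 0.0103) in WT and 3.17 ± 0.52 (SE; adjusted p = 0.00049) in KO, with E2 means 3.85 and 13.6 times the ovx means. The KO call held in all 15 other settings and left-out libraries, and the WT call in 14 of 15, with 1.28 (adjusted p = 0.0532) under quantile normalization. The response was larger in KO by 1.34 ± 0.74 (SE; adjusted p = 0.253), which did not pass. Within batches E2 minus ovx was 1.48 (adjusted p = 0.209) and 2.32 (adjusted p = 0.115) in WT and 2.53 (adjusted p = 0.0806) in KO, positive each time and short of the threshold with these few libraries.

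Marker sums moved with Cdkn1a as well. Epithelial sums were 40.2 to 90.8 in WT ovx and 495 to 857 in WT E2, with 6 of 7 markers called higher, but 110 to 399 in KO ovx and 78.1 to 461 in KO E2, which overlap. Neutrophil sums were 0.96 to 3.28 in WT ovx and 69.6 to 559 in WT E2. In KO they were 1.96 to 216.2 in ovx and 1292 to 14350 in E2. The highest Cdkn1a value, 37.6 FPKM, was in KO E2 replicate 1, which had the neutrophil sum of 14350 and the epithelial sum of 78.1. The part of these markers in the Cdkn1a result was not tested. With ovaries, Cdkn1a varied most in WT, at 1.89, 4.71 and 13.4 FPKM, and was at 6.34, 9.63 and 5.46 FPKM in KO. All KO intact libraries lay above all KO ovx ones, and the difference of 1.59 ± 0.52 (SE; adjusted p = 0.0512) just missed the threshold. Without KO ovx replicate 4 it was 1.92 (adjusted p = 0.0317).

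Cdkn1b, which makes p27, moved the other way. It was at 12.7, 12.1 and 9.71 FPKM in WT ovx and 5.96, 4.36 and 5.53 FPKM in WT E2. KO ovx libraries had 10.7, 10.03 and 12.2 FPKM and KO E2 libraries 6.77, 5.59 and 9.096 FPKM. Every ovx library lay above every E2 library of its genotype. E2 minus ovx was -0.99 ± 0.18 (SE; adjusted p = 0.00068) in WT, where the ovx mean was 2.17 times the E2 mean, and -0.58 ± 0.18 (SE; adjusted p = 0.0294) in KO. The WT call held in all 15 other settings and left-out libraries and within both batches, at -0.89 (adjusted p = 0.03499) and -1.10 (adjusted p = 0.0472). The KO call was lost without KO ovx replicate 1 (-0.59, adjusted p = 0.0732), without KO ovx replicate 4 (-0.50, adjusted p = 0.0705), without KO E2 replicate 1 (-0.55, adjusted p = 0.0827) and without KO E2 replicate 2 (-0.43, adjusted p = 0.109). It was also lost with a batch term, -0.47 (adjusted p = 0.1396), and within batch 3 the KO difference was -0.25 (adjusted p = 0.543). The genotypes' responses differed by 0.41 ± 0.26 (SE; adjusted p = 0.312), which did not pass, and by 0.80 (adjusted p = 0.04701) under quantile normalization.

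Intact uteri held Cdkn1b between those levels in the mean, at 6.92, 8.69 and 8.54 FPKM in WT and 9.58, 7.78 and 7.94 FPKM in KO. In KO the intact and E2 ranges overlapped, with KO E2 replicate 3 at 9.096 FPKM. Intact minus ovx was -0.46 ± 0.18 (SE; adjusted p = 0.0503) in WT, with no overlap, and -0.35 ± 0.18 (SE; adjusted p = 0.212) in KO. Median-ratio scaling brought both past the threshold, at -0.77 (adjusted p = 0.00142) and -0.49 (adjusted p = 0.0387), and so did leaving out WT ovx replicate 3 in WT, -0.57 (adjusted p = 0.0413). Cdkn1a exceeded Cdkn1b in all 6 E2 libraries, 0 of 6 ovx libraries and 2 of 6 intact libraries. Cdkn1a thus made up 74.2 ± 2.89% of the sum of the pair in WT E2 and 75.2 ± 12.4% in KO E2, against 24.9 ± 15.4% and 13.4 ± 6.57% in ovx. The other CIP/KIP gene, Cdkn1c, which makes p57, went from 10.2 ± 1.69 FPKM in WT ovx to 2.09 ± 0.543 FPKM in WT E2, -1.86 ± 0.56 (SE; adjusted p = 0.0133). In KO it was at 5.41 ± 3.09 FPKM in ovx and 2.33 ± 1.44 FPKM in E2, -0.93 ± 0.56 (SE; adjusted p = 0.227), which did not pass. Intact minus ovx was -1.54 ± 0.56 (SE; adjusted p = 0.0346) in WT and 0.05 ± 0.56 (SE; adjusted p = 0.965) in KO, and the genotypes' E2 responses differed by 0.92 ± 0.78 (SE; adjusted p = 0.471), which did not pass.

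**Figure D4:**
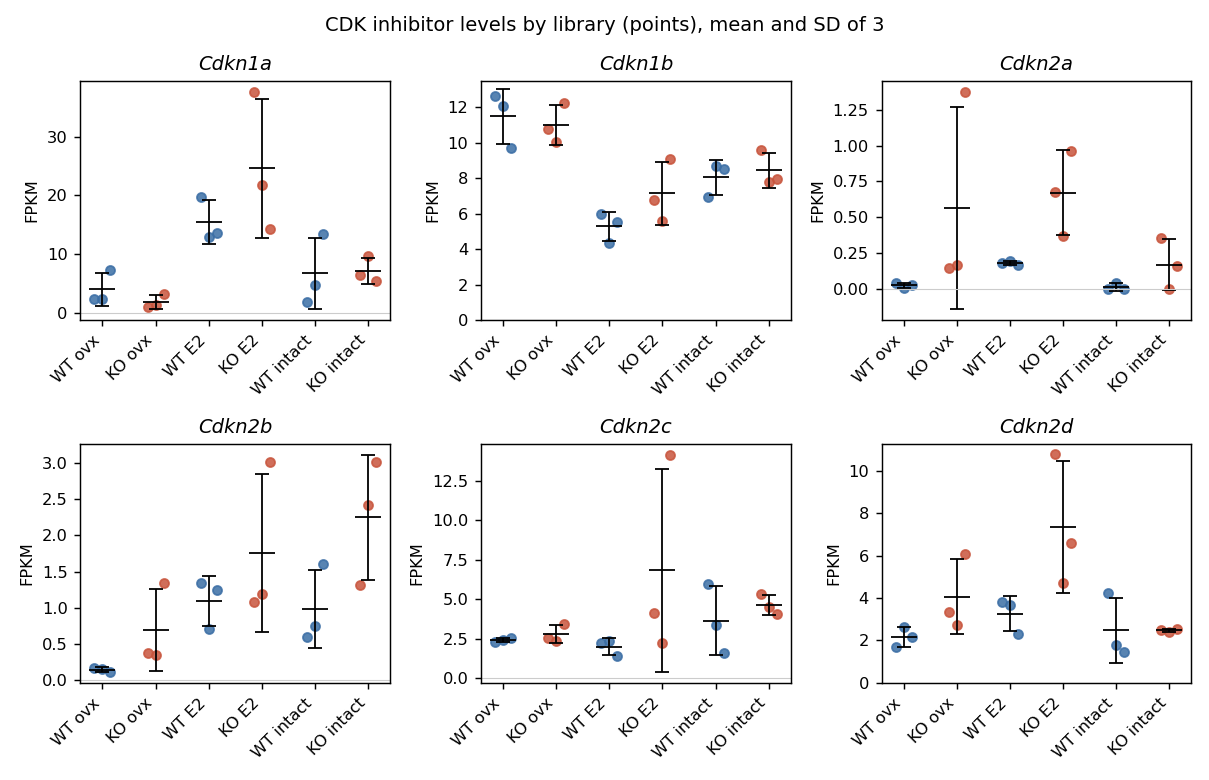
FPKM of the 6 inhibitor genes (y axes, a scale for each gene) in each library (points, WT blue and KO red) of the 6 groups, with the mean and SD of 3 as bars. Cdkn1a is high and Cdkn1b low in E2, and Cdkn2a reaches at most 1.37 FPKM.

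The plot of inhibitors by library also shows the 4 INK4 genes. Cdkn2b, which makes p15 and is known as a target of TGF-β signals, was lowest in ovx. It was at 0.165, 0.156 and 0.112 FPKM in WT ovx, 1.34, 0.699 and 1.24 FPKM in WT E2 and 0.5903, 0.7504 and 1.61 FPKM in WT intact. KO libraries had 0.379, 0.344 and 1.35 FPKM in ovx, 1.07, 1.19 and 3.02 FPKM in E2 and 1.31, 2.43 and 3.02 FPKM in intact. In WT the ovx libraries lay apart from both other states, and in KO the high KO ovx replicate 4 overlapped them. E2 minus ovx was 0.86 ± 0.29 (SE; adjusted p = 0.0251) in WT and 0.69 ± 0.29 (SE; adjusted p = 0.0923) in KO, and intact minus ovx was 0.76 ± 0.29 (SE; adjusted p = 0.0451) in WT and 0.96 ± 0.29 (SE; adjusted p = 0.0364) in KO.

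These Cdkn2b calls sat near the threshold. The WT E2 call was lost without WT ovx replicate 1 (0.87, adjusted p = 0.0589), without WT ovx replicate 2 (0.87, adjusted p = 0.0553), without WT ovx replicate 3 (0.84, adjusted p = 0.061), without WT E2 replicate 1 (0.77, adjusted p = 0.0757) and without WT E2 replicate 5 (0.80, adjusted p = 0.0728). The intact call was lost in WT without WT intact replicate 2 (0.83, adjusted p = 0.0574), without WT intact replicate 4 (0.54, adjusted p = 0.188), without WT ovx replicate 1 (0.77, adjusted p = 0.0945), without WT ovx replicate 2 (0.77, adjusted p = 0.0889) and without WT ovx replicate 3 (0.74, adjusted p = 0.0977), and in KO without KO intact replicate 3 (0.90, adjusted p = 0.1102), without KO intact replicate 4 (0.79, adjusted p = 0.146), without KO ovx replicate 1 (0.84, adjusted p = 0.138) and without KO ovx replicate 2 (0.82, adjusted p = 0.139). The KO E2 difference, in turn, was 0.95 (adjusted p = 0.0264) without KO ovx replicate 4. Within batches, WT E2 minus ovx was 0.98 (adjusted p = 0.109) and 0.79 (adjusted p = 0.244), and the KO value was 1.30 (adjusted p = 0.07503). With a pseudocount of 0.1 in place of 1 the WT differences were 2.25 (adjusted p = 0.00256) for E2 and 2.04 (adjusted p = 0.00514) for intact. KO minus WT over the states was 0.52 ± 0.17 (SE; adjusted p = 0.0794), short of the threshold, and 0.57 (adjusted p = 0.0457) without KO E2 replicate 2.

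Cdkn2c (p18) and Cdkn2d (p19) were the most abundant INK4 genes, each highest of the 4 in 9 of 18 libraries, and neither passed in any comparison. Cdkn2c was at 2.27, 2.43 and 2.57 FPKM in WT ovx, 2.26, 2.33 and 1.404 FPKM in WT E2 and 5.95, 3.34 and 1.61 FPKM in WT intact. KO libraries had 2.56, 2.36 and 3.46 FPKM in ovx, 4.11, 2.21 and 14.1 FPKM in E2 and 5.32, 4.501 and 4.04 FPKM in intact. The value of 14.1 in KO E2 replicate 3, the library with the highest adipocyte, macrophage and lymphocyte sums, stood far above all others. Without that library KO minus WT in E2 was 0.45 (adjusted p = 0.417), against 1.08 ± 0.43 (SE; adjusted p = 0.142) with it and 1.57 (adjusted p = 0.0146) without KO E2 replicate 2. Leaving out KO E2 replicate 2 also brought E2 minus ovx in KO, 1.22 (adjusted p = 0.0363), and KO minus WT over the states, 0.70 (adjusted p = 0.046), past the threshold. Within batch 3, where KO E2 replicate 3 stands alone for its group, KO E2 minus ovx was 2.01 (adjusted p = 0.0221), against 0.74 ± 0.43 (SE; adjusted p = 0.214) over all libraries.

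Cdkn2d was at 1.71, 2.65 and 2.18 FPKM in WT ovx and 3.34, 2.75 and 6.08 FPKM in KO ovx. E2 libraries had 3.79, 3.67 and 2.31 FPKM in WT and 10.8, 4.71 and 6.61 FPKM in KO. In both states the KO libraries lay wholly above the WT ones. The 10.8 FPKM was in KO E2 replicate 1, which had the highest neutrophil sum, 14350. The 6.08 FPKM was in KO ovx replicate 4, with a neutrophil sum of 216.2 and a macrophage sum of 543. The part of these markers in the Cdkn2d values was not tested. KO minus WT was 0.62 ± 0.31 (SE; adjusted p = 0.269) in ovx and 0.93 ± 0.31 (SE; adjusted p = 0.0809) in E2, and neither passed. With ovaries the genotypes had like means, 2.48 ± 1.53 FPKM in WT and 2.47 ± 0.0525 FPKM in KO (SD, n = 3). Over the states the difference was 0.55 ± 0.18 (SE; adjusted p = 0.08697), and it passed without WT intact replicate 1, 0.66 (adjusted p = 0.02499), or KO E2 replicate 2, 0.63 (adjusted p = 0.02998). In E2 alone it also passed without KO E2 replicate 2, 1.17 (adjusted p = 0.02397). E2 minus ovx in KO was 0.72 ± 0.31 (SE; adjusted p = 0.101), and passed without KO ovx replicate 4, 0.99 (adjusted p = 0.0321), or KO E2 replicate 2, 0.96 (adjusted p = 0.0437).

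Cdkn2a, the senescence-linked gene for p16 and Arf, was the member with the lowest levels. WT libraries had 0.0436, 0.0119 and 0.0278 FPKM in ovx, 0.186, 0.194 and 0.171 FPKM in E2 and 0, 0.0451 and 0 FPKM in intact. KO libraries had 0.149, 0.168 and 1.37 FPKM in ovx, 0.6797, 0.372 and 0.963 FPKM in E2 and 0.356, 0 and 0.161 FPKM in intact. All KO libraries lay above all WT libraries in ovx and E2, and 1 KO intact library was listed at 0 along with 2 WT intact ones. The highest value, 1.37, was in KO ovx replicate 4. An exact permutation test of genotype within each state, chosen after these values were seen, gave a KO minus WT difference of 0.40 on the log2(FPKM + 1) scale with a two-sided p of 0.001 over 8000 arrangements, where the smallest possible is 0.00025. In a limma fit with no filter on low values the adjusted p of the same difference was 0.101. With values this low and no read totals, how many reads stand behind them is unknown.

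Summed over the 6 inhibitors and divided by the summed D cyclins, the FPKM ratio was 0.941 ± 0.133 in WT ovx and 0.697 ± 0.0782 in KO ovx (SD, n = 3). It was 1.16 ± 0.117 in WT E2 and 1.82 ± 0.767 in KO E2, and 1.01 ± 0.122 and 1.12 ± 0.175 in WT and KO intact. In the right panel of the plot of shares and ratios, all KO ovx libraries lay below all WT ovx ones and KO E2 replicate 1 reached 2.68. The order of the WT groups depends on the genes summed: with Cdkn1c added, the ratio was 1.41 ± 0.209 in WT ovx and 1.25 ± 0.1404 in WT E2, so E2 was the lower, while KO kept its order at 0.906 ± 0.217 and 1.904 ± 0.823. The ratio was not tested, and it says nothing of protein.

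The kinases that D cyclins activate were followed next. Cdk4 was at 19.2 ± 3.83 FPKM in WT ovx and 40.97 ± 15.3 FPKM in WT intact, 1.01 ± 0.28 (SE; adjusted p = 0.00926), and at 25.1 ± 4.68 FPKM and 58.4 ± 11.9 FPKM in KO, 1.19 ± 0.28 (SE; adjusted p = 0.00962). Under E2 its difference did not pass in WT, 0.43 ± 0.28 (SE; adjusted p = 0.215), or in KO, 0.31 ± 0.28 (SE; adjusted p = 0.429). Cdk6 was lower in WT E2 than in WT ovx, -0.57 ± 0.19 (SE; adjusted p = 0.0218). Rb1, the gene for the retinoblastoma protein, did not pass in any comparison, with a mean of 1.14 ± 0.163 FPKM in WT ovx and 1.32 ± 0.367 FPKM in WT E2.

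In a list of 17 other cyclins and kinase regulators, 14 were tested. Intact against ovx called 10 higher and 2 lower in WT (85.7%, against 45.3% of all tested genes; median 0.93, against 0.21) and 8 higher and 0 lower in KO (57.1%, against 15.9%; median 0.87, against 0.09). E2 against ovx called 4 higher and 3 lower in WT (50%, near the 47.5% of all genes) and 4 higher and 0 lower in KO (28.6%, near 27.1%). KO against WT called only Ccne1, cyclin E1, in E2 and over the states; in E2 it was at 1.55 ± 0.1701 FPKM in KO and 0.517 ± 0.119 FPKM in WT (SD, n = 3), 0.75 ± 0.21 (SE; adjusted p = 0.0421). Of 23 tested genes of S phase and mitosis, E2 called 7 higher in WT (30.4%) and 4 in KO (17.4%), near the 32.3% and 15.9% of all genes called higher, although the medians were 0.66 and 0.71 against 0.24 and 0.07. Intact against ovx called 16 higher in WT (69.6%, against 29.9%) and 15 in KO (65.2%, against 7.14%), with medians of 1.10 and 1.20 against 0.21 and 0.09. None was called lower in these 4 comparisons. KO against WT called Cdt1 higher in E2 (4.35%, against 8.49% of all genes) and 0 in intact or ovx. Over the states it called Cdt1 and Rrm2 higher (8.7%, against 5.9%).

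Mki67, a marker of cycling cells, was at 0.553 ± 0.113 FPKM in WT ovx, 1.56 ± 0.943 FPKM in WT E2 and 4.84 ± 4.51 FPKM in WT intact. It passed for intact against ovx, 1.64 ± 0.52 (SE; adjusted p = 0.01999) in WT and 1.83 ± 0.52 (SE; adjusted p = 0.02803) in KO, and did not for E2, 0.66 ± 0.52 (SE; adjusted p = 0.312) and 0.94 ± 0.52 (SE; adjusted p = 0.199). Of 12 tested RB and E2F genes, KO against WT in E2 called 2 higher and 1 lower (25%, against 8.49% of all genes; median 0.10, against -0.05). The differences were 0.88 ± 0.22 (SE; adjusted p = 0.0224) for E2f1, 0.77 ± 0.19 (SE; adjusted p = 0.02204) for E2f2 and -0.79 ± 0.17 (SE; adjusted p = 0.0104) for E2f5. KO against WT also called E2f6 higher in intact (8.33%, against 2.18% of all genes) and 0 in ovx. Over the states it called E2f1 and E2f2 higher (16.7%, against 5.9%). E2 against ovx called 1 higher and 2 lower in WT (25%, below the 47.5% of all genes) and 1 each way in KO (16.7%, against 27.1%), with medians of 0.29 and 0.18 against 0.24 and 0.07. Intact against ovx called 7 higher in WT (58.3%, against 29.9%) and 3 in KO (25%, against 7.14%), with 0 lower and medians of 0.54 and 0.41 against 0.21 and 0.09.

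Cdkn1a is a p53 target, so a list of 16 genes linked to p53, Trp53 among them, was counted. E2 against ovx called 7 higher and 2 lower in WT (56.2%, against 47.5% of all genes; median 0.53, against 0.24) and 5 higher and 1 lower in KO (37.5%, against 27.1%; median 0.45, against 0.07). Perp, a desmosomal p53 target, was at 50.9 ± 20.1 FPKM in WT E2 and 3.54 ± 1.43 FPKM in WT ovx (SD, n = 3), and Gadd45a, a DNA damage response gene, was at 43.3 ± 7.66 and 6.08 ± 5.09 FPKM. The E2 response of Perp was smaller in KO, with a KO minus WT difference in response of -3.36 ± 0.92 (SE; adjusted p = 0.0322). Epithelial markers moved with Perp. In WT, E2 against ovx called 6 of 7 of them higher (85.7%, against 47.5% of all genes). For the genotype difference in response, 5 of 7 were called lower (71.4%, against 11% called either way), with a median of -2.89. Their part in the Perp result was not tested. In KO, Fas, a death receptor, was at 5.39 ± 1.66 FPKM in E2 and 1.06 ± 0.409 FPKM in ovx, while Eda2r, a receptor of the tumor necrosis factor family, was lower in E2 at 0.3501 ± 0.04605 against 2.12 ± 1.56 FPKM, -1.04 ± 0.31 (SE; adjusted p = 0.0216). Trp53 itself did not pass for E2 in either genotype, 0.05 ± 0.20 (SE; adjusted p = 0.852) and -0.01 ± 0.20 (SE; adjusted p = 0.968). In KO it was higher in intact than in ovx uterus, 0.99 ± 0.20 (SE; adjusted p = 0.00395). Of the list, KO against WT called Bax higher in ovx (6.25%, against 5.42% of all genes) and Fas higher in E2 (6.25%, against 8.49%). It called 0 in intact, and over the states Bax and Zmat3 higher (12.5%, against 5.9%).

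Of 23 tested regulators of D cyclins and inhibitors, E2 against ovx called 8 higher and 3 lower in WT (47.8%) and 4 higher and 2 lower in KO (26.1%), near the 47.5% and 27.1% of all genes, with medians of 0.26 and 0.14 against 0.24 and 0.07. Intact against ovx called 8 higher and 2 lower in WT (43.5%, against 45.3%; median 0.18, against 0.21) and 8 higher and 1 lower in KO (39.1%, against 15.9%; median 0.44, against 0.09). Cbx7, a Polycomb protein known to repress the Cdkn2a locus, was lower in E2 than in ovx, at 1.89 ± 0.473 against 13.8 ± 1.61 FPKM in WT and 1.77 ± 0.25 against 8.89 ± 0.758 FPKM in KO (SD, n = 3). The differences were -2.37 ± 0.31 (SE; adjusted p = 0.00011) and -1.84 ± 0.31 (SE; adjusted p = 0.0006). Cbx7 was lower in intact than in ovx uterus as well, at 2.39 ± 1.92 FPKM in WT intact and 2.48 ± 0.831 FPKM in KO intact. Those differences were -2.29 ± 0.31 (SE; adjusted p = 0.00012) and -1.53 ± 0.31 (SE; adjusted p = 0.0041). A link of Cbx7 to the Cdkn2a levels was not tested. Tgfb1, whose product is known to induce Cdkn2b, was at 12.9 ± 3.51 FPKM in KO E2, 5.11 ± 1.201 FPKM in WT E2 and 1.24 ± 0.0271 FPKM in KO ovx. Its E2 response was larger in KO by 1.24 ± 0.33 (SE; adjusted p = 0.0297). That test called 1 regulator each way (8.7%, against 11% of all genes), with Ctnnb1 at -1.56 ± 0.35 (SE; adjusted p = 0.0143). KO against WT called Tgfb1 higher and Stat5a and Stat5b lower, in E2 (13%, against 8.49%) and over the states (13%, against 5.9%). Macrophage sums were 395 to 2598 in KO E2, 32.6 to 148 in WT E2 and 17.5 to 543 in KO ovx. Their part in the Tgfb1 result was not tested. Myc was lower in WT E2 than in WT ovx, -1.21 ± 0.39 (SE; adjusted p = 0.0201), and the KO difference was 0.02 ± 0.39 (SE; adjusted p = 0.9797); the difference between the genotypes was 1.22 ± 0.55 (SE; adjusted p = 0.164) and did not pass.

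Among 5184 genes with a mean of at least 5 FPKM, those whose log2 levels followed the members most closely over the 18 libraries were Socs2 (Pearson r = 0.92), Rela (0.91) and Cebpb (0.90) for Cdkn1a. For Ccnd2 they were Arl3 (0.91), Tgfbi (0.89) and Ptms (0.88), and for Cdkn2c Cat (0.89), Gstm3 (0.88) and Gstm1 (0.87). Among the members, Cdkn1a and Cdkn1b had r = -0.67, Ccnd3 and Cdkn1a 0.70, Ccnd1 and Ccnd3 -0.71, and Ccnd2 and Cdkn1b 0.64. These are descriptions over libraries that share groups, batches and scaling.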

How the data were processed

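RNA of uterine cross sections from 18 libraries was sequenced by the authors after a stranded mRNA library preparation, per the labels' protocols. Deposited values are FPKM per gene. The submitters' processing notes name Cufflinks 2.0.2 and Cuffdiff, while aligner, annotation and genome build are not given in the sources used here. This table carries no read totals, so the depth per library and the counting error are unknown. Groups were taken from the sample titles. FPKM was turned into log2(FPKM + 1), and limma 3.58.1 in R 4.3.3 was fitted with a mean per group over all 18 libraries, a trend in the prior variance, two-sided tests and Benjamini-Hochberg adjustment over the 13898 genes with at least 1 FPKM in at least 3 libraries, within each of 10 comparisons. A call is an adjusted p under 0.05. The fit was tested on simulated data. Cdkn2a fell below the filter and was given an exact permutation test, chosen after its values were seen. Batches are 4 sets of libraries whose lowest values share steps. They were formed by clustering on that sharing, with the number of sets fixed at 4. Pairs within a set shared a median of 7.33% of steps and pairs across sets 1.59%. The sets were formed from these same values, so that gap describes them and is no separate evidence for them. All 9 members are described. In each wider list, up to 3 called genes with the largest difference could be named per comparison, besides Cdk4, Cdk6, Cdkn1c, Rb1, Trp53, Myc and Mki67. The members and lists were chosen with earlier results of these data known. The positions in the table overlap the GRCm38 position of the same symbol for 12.3% of 20000 genes and so are not printed; promoter windows are RefSeq, GRCm38.p6.

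Alternatives were another pseudocount (0.1), no filter, median-ratio scaling, quantile normalization, a replicate block, a batch term, only the compared groups, and each library left out in turn. Fits within batches were added after seeing the data, and so were the inhibitor ratio with Cdkn1c in the sum and 2 fits that each left out 3 libraries. The first set (WT intact replicate 4, KO ovx replicate 4 and KO E2 replicate 3) was picked by eye, the last of these because members were high there. The second set, run after the results of the first were known, took the library with the lowest mean correlation with its own group from each of the 3 groups where that was lowest (WT intact replicate 4, KO ovx replicate 4 and KO E2 replicate 2). Both are reported and neither supports a result. Figures were drawn with matplotlib 3.10.9 in Python 3.11.15.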

Additional observations from a re-analysis of the deposited data

How the results depend on the processing

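The number of members called per comparison was recomputed under each alternative. For KO against WT over the states, 1 member was called in the fit as reported, 0 with a pseudocount of 0.1, with no filter, with the replicate block and with the batch term, and 2 with median-ratio scaling. For intact against ovx in KO the count was 2 as reported, 1 with no filter, and 3 with a pseudocount of 0.1 or quantile normalization (Cdkn1a gained) and with median-ratio scaling (Cdkn1b gained). For E2 against ovx in KO it was 4 as reported, 2 with the batch term and 1 with only the compared groups. For genotype by E2 it was 0 as reported and 1 (Cdkn1b) with quantile normalization. Ccnd3 in E2 against ovx in WT reversed under quantile normalization (-0.16). The inhibitor to D cyclin ratio, E2 minus ovx in WT, went from 0.22 to -0.16 with Cdkn1c in the sum, an alternative chosen after seeing the data. The cause of these shifts was not tested.

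Leaving out 1 library at a time gave 0 to 4 members for KO against WT over the states, 0 to 2 for KO against WT in E2, 3 to 5 for E2 against ovx in WT, 2 to 4 in KO, 1 to 2 for intact against ovx in WT, 1 to 3 in KO, and 0 for KO against WT in intact or ovx and for both genotype interactions.

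Leaving out 3 libraries gave different answers for the sets tried. Without the set picked by eye, which was run first, KO against WT in intact called 1 member (Cdkn2b), and intact against ovx called 4 in WT and 4 in KO. Without the set with the lowest correlation, run second, KO against WT called 3 in E2 (Ccnd2, Cdkn2c and Cdkn2d) and 2 over the states, and genotype by E2 called 1 (Cdkn2c). They share all but 1 library, KO E2 replicate 3 or 2, so the KO E2 counts rest on which of these is kept.

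Whether replicate numbers pair the libraries was not settled. Of 31 same-numbered pairs, 12 had deviations correlated above 0.1 (range -0.24 to 0.34, median 0.08). Differently numbered pairs were not compared, so these values cannot show pairing or its absence. With the replicate block the Ccnd2 calls were lost over the states (0.78, adjusted p = 0.0901) and in WT E2 (-0.94, 0.111), the Cdkn1b call was lost in KO E2 (-0.56, 0.0595) and Cdkn2b was called in KO E2 (0.78, 0.016). The batch term was not run for intact against ovx, since no batch holds both. With only the compared groups in the fit, all-gene counts were 0 for KO against WT in E2 (1180 as reported), 25 in intact (303) and 1786 for E2 against ovx in KO (3767), so counts there lean on the spread shared by all groups. With the replicate block they were 384 in E2, 545 in intact, 399 in ovx (753 as reported), 482 over the states (820), 136 for genotype by E2 (1529) and 397 for genotype by ovaries (643). Median-ratio scaling gave 1259 over the states. Quantile normalization gave 535 in intact, 1978 in ovx, 1589 over the states, 1495 for genotype by ovaries and 3673 for intact against ovx in KO (2206). The batch term gave 429 in ovx and 389 for genotype by ovaries. Without the set picked by eye the counts were 293 for genotype by ovaries and 3843 for intact against ovx in KO; without the set with the lowest correlation they were 3217 in E2, 516 in intact, 2425 over the states, 2754 for genotype by E2, 420 for genotype by ovaries and 3902 for intact against ovx in KO. Among called genes, the share higher in KO ovx was 85.4% as reported, 65.6% with no filter, 64.2% with median-ratio scaling and 51.3% with quantile normalization. Unknown depth limits every low value, Cdkn2a and Cdkn2b above all.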
